A study of Mus musculus with 18 samples.

Results

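Satellite cells sorted from uninjured muscle of Sdc4-/- mice were compared with satellite cells sorted from uninjured wild type muscle, using the 5 arrays of these groups that the authors kept out of the 18 arrays of the series. All 45101 probe sets of the Affymetrix mouse array entered the comparison. The Sdc4-/- group held 3 replicates from mice homozygous for a deletion of syndecan-4 on a C57BL/6 background. The wild type group held replicates 1 and 2 from B6D2F1/J mice, the first-generation cross of C57BL/6 and DBA/2. A further wild type array, which the authors removed because it grouped with injured samples, was taken to be replicate 3 and serves only as a check. The mice were adult females, aged 3 to 6 months by the study's general description and 3 months by its account of the sorting. The muscle was the uninjured tibialis anterior. Cells were released with collagenase and sorted on immunoreactivity for syndecan-3, and their RNA was amplified in 2 rounds before hybridization. Every difference below is Sdc4-/- minus wild type, on the log2 scale of the normalized (GCRMA) array values, and array values are listed as wild type replicates 1 and 2, then Sdc4-/- replicates 1, 2 and 3.

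Satellite cells are the stem cells of skeletal muscle and lie between the muscle fibre and its basement membrane. Quiescent satellite cells express the transcription factor Pax7 and carry the transmembrane heparan sulfate proteoglycans syndecan-3 and syndecan-4 on their surface. Syndecan-4 binds growth factors and extracellular matrix through its sugar chains and takes part in focal adhesions, where it acts on protein kinase C alpha and Rac1. Muscle also holds endothelial cells, pericytes, fibroblast-like interstitial cells and resident macrophages, and macrophages present antigen on MHC class II.

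The groups differed in more than the deleted gene. Strain differed together with genotype, and, by the array headers, the wild type and the Sdc4-/- arrays were scanned on different days, so that genotype, strain and scan day cannot be told apart. The labels do not say whether replicates came from separate mice, so a p-value here weighs the spread among samples, which may be technical, and the number of arrays limits their precision. On the 5 arrays 7137 to 7864 probe sets had a value above 5, against 4512 on the removed array. The hybridization controls, bacterial RNAs added at hybridization, averaged 8.94 and 7.86 on the wild type arrays and 9.72 to 10.3 on the Sdc4-/- arrays. The control probe set at the 5′ end of Actb, a sign of RNA or amplified fragment length, read 5.62 and 5.78 in wild type, against 6.93 to 7.38 in Sdc4-/- cells, while the 3′ probe set read 11.6 to 12.7 on all 5 arrays. Pearson correlations over all probe sets were 0.954 between the wild type arrays, 0.936 to 0.953 among the Sdc4-/- arrays and 0.874 to 0.931 across genotypes. The removed array correlated at only 0.738 with wild type replicate 1. The part that scan day, RNA quality and strain have in the results was not tested.

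Syndecan-4 mRNA did not separate the genotypes in uninjured cells. Its brighter probe set read 4.08 and 5.20 in wild type, against 5.15, 4.07 and 3.39 in Sdc4-/- cells, and the groups overlapped (difference -0.43, standard error 0.77, limma adjusted p = 1). The second Sdc4 probe set read 2.36 and 3.57 in wild type, against 2.49 to 2.52 in Sdc4-/- cells, near the floor of the arrays. At 48 h after injury the brighter probe set read 6.88, 8.0 and 8.11 in wild type, against 4.15, 4.09 and 6.53 in Sdc4-/- cells (difference -2.74, limma adjusted p = 0.04). The second probe set then read 5.59, 7.62 and 6.48 in wild type, against 2.54, 2.60 and 2.52 in Sdc4-/- cells (difference -4.01, limma adjusted p = 0.000545). Where these probes lie relative to the deleted part of the gene is not known here, so they check the labels only as far as these values go. Sdc3, whose protein was used to sort the cells, read 5.05 and 5.94 in wild type, against 6.06, 5.92 and 6.71 in Sdc4-/- cells (0.74, standard error 0.45, adjusted p = 0.594).

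Over all probe sets 1714 (3.8%) were called, that is, they had a limma adjusted p under 0.05, with 566 (1.25%) higher and 1148 (2.55%) lower in Sdc4-/- cells. This fit shares its estimate of spread among all 6 groups of the series. With the spread taken from the 5 uninjured arrays alone, 57 probe sets (0.126%) were called, 19 higher (0.0421%) and 38 lower (0.0843%), although 5827 had an unadjusted p under 0.05. With the removed wild type array put back, 426 (0.945%) were called, 350 higher (0.776%) and 76 lower (0.169%). The median SD of the called probe sets was 0.369 within the uninjured groups and 0.296 over the 6 groups, and for 784 of the 1714 (45.7%, against 37.5% of all probe sets) every one of the 12 injured arrays read under 3.5, close to background. Without wild type replicate 1 the numbers were 208 higher and 1000 lower, and without Sdc4-/- replicate 3 they were 906 higher and 1159 lower. When dim probe sets with a mean under 4 were left out, 314 were called, of which 61.5% were higher. The values of the 2 groups did not overlap in 17192 probe sets (38.1%), so that a lack of overlap in a named gene below is common by itself.

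By gene, with each of 18194 symbols represented by its probe set of highest mean, 240 (1.32%) were higher and 538 (2.96%) were lower in Sdc4-/- cells, 4.28% in all. From the 5 arrays alone 0.132% of genes were called, and with the removed array included 1.02%. The 2 sides related differently to the removed wild type array. For 93.2% of the called lower probe sets the removed array lay nearer to the Sdc4-/- mean than to the mean of the other wild type arrays, and for 32.7% of the called higher ones, where the share over all probe sets was 61.6%.

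The largest rises were in Hal and Gdpd3. Hal, histidine ammonia-lyase, read 2.52 and 3.76 in wild type, against 10.51, 10.40 and 10.05 in Sdc4-/- cells (7.18, standard error 1.00, limma adjusted p = 0.00142). All 3 Sdc4-/- arrays lay far above both wild type arrays, and the removed wild type array read 5.79, with which the difference was 6.30. Gdpd3, a phosphodiesterase that acts on glycerophospholipids, stayed at 2.52, 2.60 and, on the removed array, 2.71 in wild type cells, against 9.67, 8.63 and 10.6 in Sdc4-/- cells (7.07, standard error 0.56, adjusted p = 1.72e-05). Isoc1, which encodes a protein with an isochorismatase domain, read 4.12 and 4.18 in wild type, against 8.34, 8.21 and 8.49 in Sdc4-/- cells (4.195, standard error 0.52, adjusted p = 0.000597). Isoc1 showed the tightest replicates of the 3, and it was the only 1 of the 15 largest rises that was also called from the 5 arrays alone. The other 3 probe sets for Isoc1 were not called.

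Other large rises included lectins and receptors. Cd209e, a C-type lectin of the DC-SIGN family, read 2.38 and 5.09 in wild type, against 9.24, 9.19 and 7.98 in Sdc4-/- cells (5.07, standard error 0.57, adjusted p = 0.000262). Mgl2, a galactose-binding lectin of macrophages and dendritic cells, read 3.18 and 6.55 against 10.5, 9.97 and 9.04 (4.97, adjusted p = 0.00581). Il6ra, the binding subunit of the interleukin-6 receptor, read 2.34 and 4.02 against 7.82, 6.86 and 7.41 (4.18, adjusted p = 0.000345). The second Il6ra probe set differed by 0.15 and was not called. In each of these genes wild type replicate 2 read higher than replicate 1, and the Sdc4-/- values exceeded both. The same gap between the wild type replicates was wider in Ms4a6d (3.73 and 9.17, then 11.3 to 11.8), in the complement component C1qc (2.47 and 7.05, then 8.48 to 9.24), in the ficolin Fcna (2.95 and 8.15, then 9.10 to 9.96) and in the transcription factor Maf (4.99 and 8.83, then 10.8 to 11.1). Their differences of 4.00 to 5.02 passed with limma adjusted p-values of 0.0438 to 0.0488. A dimmer Maf probe set read 2.48 and 3.04, then 5.20, 5.83 and 4.60 (2.45, limma adjusted p = 0.000178). Another Maf probe set differed by 2.89 (limma adjusted p = 0.00788), and the remaining ones were not called. Chil3, a chitinase-like protein secreted by macrophages, Fcgr2b, the inhibitory Fc receptor, and Ear3, a ribonuclease of the eosinophil-associated family, differed by 4.93, 4.17 and 3.97 and passed too. In 14 of the 15 genes the removed wild type array also lay below every Sdc4-/- array, and with that array in the fit 7 of the 15 were called. The removed array was not always close to the other wild type arrays, and read 10.7 for Maf and 10.3 for Ms4a6d.

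**Figure D1:**
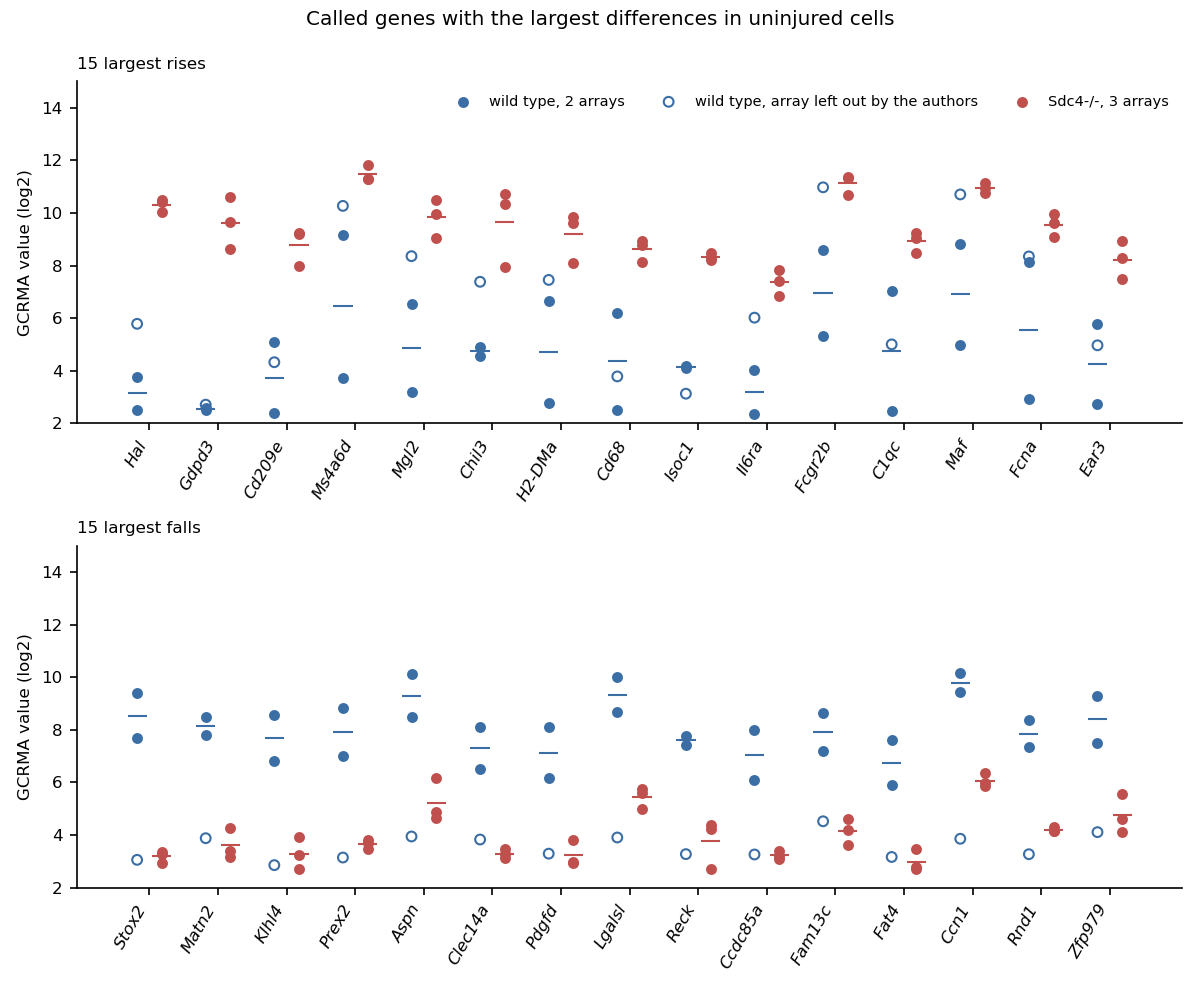
The 15 largest rises (top) and 15 largest falls (bottom) among called genes whose groups do not overlap; the vertical axis is the GCRMA value (log2), filled blue circles are the 2 wild type arrays, open blue circles the wild type array left out by the authors, red circles the 3 Sdc4-/- arrays and short lines the group means. The open circles lie below every red circle in 14 of the 15 rises and above every red circle in 1 of the 15 falls. In some rises, such as Maf and Ms4a6d, they lie nearer to the red circles than to the wild type mean.

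The largest falls began with Stox2 and Matn2. Stox2, a storkhead-box protein, read 9.39 and 7.69 in wild type, against 3.27, 3.35 and 2.95 in Sdc4-/- cells (-5.35, standard error 0.40, limma adjusted p = 1.18e-05). Its other probe sets differed by -0.33 to 0.49 and were not called. Matn2, the matrix protein matrilin-2, read 8.47 and 7.82 against 3.39, 3.16 and 4.28 (-4.54, standard error 0.28, adjusted p = 2.58e-06). Stox2 was near the floor on all Sdc4-/- arrays and Matn2 on 2 of the 3, and the removed wild type array read 3.05 for Stox2 and 3.88 for Matn2. Prex2, an exchange factor for Rac, read 8.81 and 7.01 against 3.47, 3.71 and 3.82 (-4.24, adjusted p = 4.42e-05). Pdgfd, a ligand of the PDGF receptor beta, read 8.09 and 6.16 against 2.94, 2.96 and 3.81 (-3.88, adjusted p = 0.000186). Clec14a, a lectin of endothelial cells, read 8.09 and 6.52 against 3.46, 3.11 and 3.27 (-4.03, adjusted p = 3.15e-05). Reck, a membrane-bound inhibitor of matrix metalloproteinases, had the closest wild type values of the group, at 7.43 and 7.78 against 2.70, 4.24 and 4.37 (-3.84, adjusted p = 0.000116).

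Further large falls were Aspn, a small leucine-rich proteoglycan (-4.08), the protocadherin Fat4 (-3.76), Rnd1 (-3.65), the galectin-like Lgalsl (-3.87), Klhl4 (-4.38), Ccdc85a (-3.82), Fam13c (-3.79), the zinc finger gene Zfp979 (-3.64) and Ccn1. The second probe sets of Fat4 (-1.65) and Ccdc85a (-1.23) were called, while those of Aspn (-1.55), Lgalsl (-2.68) and Klhl4 (0.02) were not. Ccn1, a matricellular protein induced early after stimulation, read 10.1 and 9.43 against 5.98, 6.36 and 5.86 on its brightest probe set (-3.72, adjusted p = 0.0214), and a second probe set gave -3.84, while its other 2 probe sets differed by 0.43 and 0.34 and were not called. On their brightest probe sets, none of the 15 falls was called from the 5 arrays alone or with the removed array included. On these probe sets the removed array lay above every Sdc4-/- array in 1 of the 15. A dim second Matn2 probe set was called lower both without the removed array (-0.84, limma adjusted p = 0.0425) and with it (-0.90, limma adjusted p = 0.0344).

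The comparisons at 12 h and 48 h ask which differences lasted. Their group means come from other arrays, but the spread is shared with the uninjured comparison, so that calls at different times are not independent. At 12 h 17.4% and at 48 h 5.07% of all probe sets were called between the genotypes. The wild type 12 h arrays had 3982, 2832 and 3505 probe sets above 5, against 5076 to 5565 on the Sdc4-/- 12 h arrays. Their mean correlation with the other arrays of their group was 0.669 to 0.715, against 0.892 to 0.919. The part of array quality in the 12 h differences was not tested. Of the 566 probe sets higher in uninjured Sdc4-/- cells, 76 (13.4%) were also higher at 12 h, where 5.47% of all probe sets were, and 73 (12.9%) at 48 h, where 3.61% were. Of the 1148 lower ones, 60 (5.23%) were also lower at 12 h, against 11.9% of all probe sets, and 10 (0.871%) at 48 h, against 1.46%. At 48 h 68 of the 1148 were higher instead. Called in the same direction at all 3 times were 15 probe sets, 12 higher and 3 lower, and by gene 8 higher and 2 lower. Among all genes 8.68% were higher and 10.4% lower at 12 h (19.1% called), and 4.7% were higher and 1.43% lower at 48 h (6.13% called).

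The 8 genes higher at all 3 times were Gdpd3, F10, Oasl1, H2-Eb1, Il7r, Ifitm6, Tbcb and Csf2ra. Gdpd3 differed by 7.07 in uninjured cells, 4.95 at 12 h and 4.30 at 48 h, and no wild type array at any time read above 2.71. F10, coagulation factor X, read 3.06 and 3.10 in uninjured wild type and 7.98, 6.88 and 6.18 in Sdc4-/- cells, with differences of 3.94, 4.94 and 2.37 at the 3 times. Il7r, the interleukin-7 receptor, read 3.75 and 4.95 against 7.32, 7.15 and 6.31, with differences of 2.57, 3.89 and 3.72. Tbcb, a cofactor of tubulin folding, was measured with little spread, at 6.26 and 6.16 against 8.27, 7.78 and 8.05, with differences of 1.82, 2.18 and 1.46. Oasl1 and Ifitm6, both of families induced by interferon, differed by 3.35 and 2.55 in uninjured cells, and Csf2ra, the GM-CSF receptor subunit, by 1.78. In the opposite direction Utf1, a chromatin-associated factor known from stem cells, read 5.29 and 6.26 in wild type, against 4.09, 3.00 and 3.81 in Sdc4-/- cells, with differences of -2.14, -1.30 and -1.21. Ninl, a centrosomal protein, differed by -0.90, -0.92 and -0.62, with uninjured values of 3.91 and 3.65 in wild type against 2.78 to 3.01.

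A small set of probe sets was called whichever arrays were fitted, of the 3 choices given above, and these are described although they were chosen after their values were seen. There were 11 probe sets called from the 17 arrays, from the 5 uninjured arrays and with the removed array included: 2 for H2-D1, 1 each for Isoc1, Rbm39, Btbd3, Ppp1r14b, Meg3 and Cp, and 3 with no gene symbol. H2-D1 is a heavy chain of MHC class I, a highly polymorphic gene of which C57BL/6 and DBA/2 carry different alleles. The H2-D1 probe set with the largest fall read 8.29 and 8.69 in wild type, against 2.58, 2.52 and 2.52 in Sdc4-/- cells (-5.95, standard error 0.35, limma adjusted p = 1.52e-06), and the removed wild type array read 7.69. At 48 h the same probe set read 6.30, 5.79 and 5.77 in wild type, against 2.53, 2.65 and 2.54 in Sdc4-/- cells. At 12 h the wild type arrays read only 3.04 to 4.28 and the difference of -0.52 was not called. The other H2-D1 probe set among the 11 differed by -5.78, and a further one outside them by -4.30. The H2-D1 probe set of highest mean did the reverse without passing, at 8.10 and 8.22 against 9.48, 8.80 and 8.17 (0.65, adjusted p = 0.837), and the other 5 were not called. The suffix of these probe sets marks probes that may also match related genes.

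Rbm39, a splicing factor, read 6.76 and 6.78 in wild type, against 3.56, 3.67 and 3.64 in Sdc4-/- cells (-3.15, standard error 0.24, limma adjusted p = 1.18e-05). The removed array read 4.84, and the Rbm39 probe set was lower at 12 h (-1.33) and at 48 h (-1.004) too. It is not the Rbm39 probe set of highest mean, since by gene only Utf1 and Ninl were lower at all 3 times. Other probe sets of Rbm39 are not described here. The imprinted non-coding RNA Meg3 read 4.98 and 5.32 against 2.96 to 2.99 (-2.18), Btbd3, a BTB-domain protein, differed by -2.06, Ppp1r14b, an inhibitor of protein phosphatase 1, by 2.35, and Cp, the copper-binding ceruloplasmin, by 2.22. The 2 probe sets of H2-D1 among the 11, Rbm39 and Isoc1 were called in 16 of 16 other settings, Gdpd3 and Hal in 15 of 16, Utf1 in 14 of 16 and Il7r in 10 of 16.

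**Figure D2:**
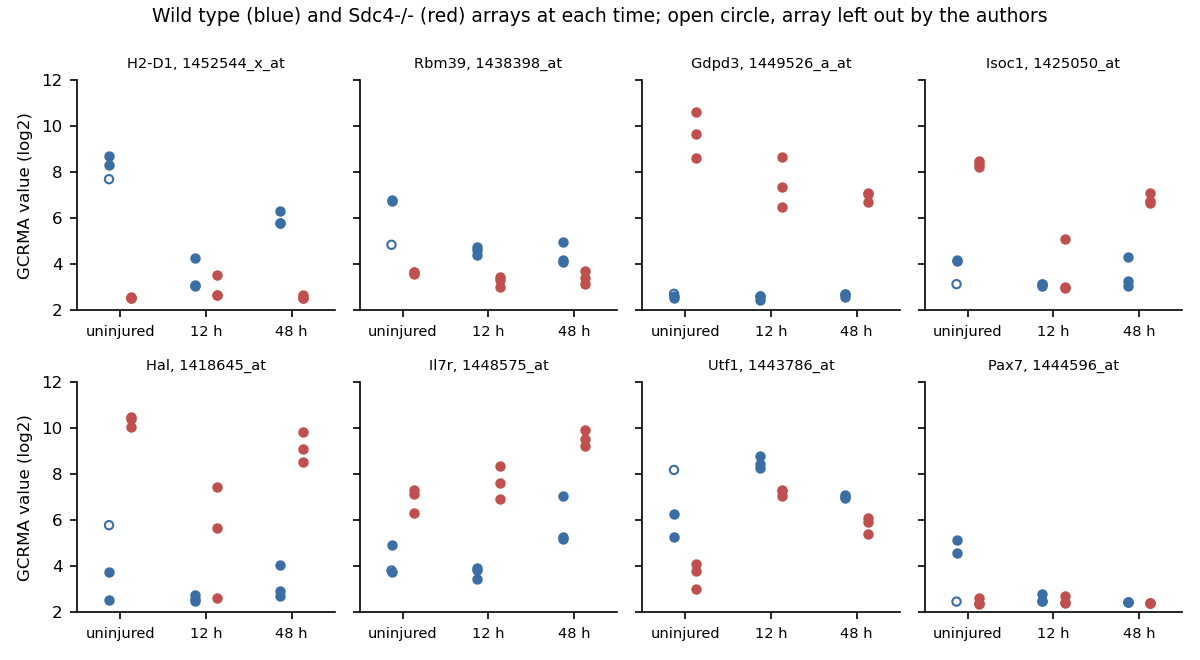
GCRMA values (log2, vertical axis) of 8 probe sets on each wild type (blue) and Sdc4-/- (red) array, uninjured and at 12 h and 48 h after injury; the open circle is the array left out by the authors. Gdpd3 stays at or under 2.71 on every wild type array, the H2-D1 probe set with the largest fall stays at or under 3.54 on every Sdc4-/- array, and Pax7 separates the genotypes in uninjured cells and lies near 2.4 to 2.8 on all injured arrays.

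A list of 15 measured genes that differ between C57BL/6 and DBA/2 strains held no called member, where 4.28% of all genes were called. Its median was 0.21 beside 0.02 for all genes, and 3 members had an unadjusted limma p under 0.05. Its brightest members were Glo1, glyoxalase 1, with 9.30 and 8.16 in wild type, against 8.66 to 8.99 in Sdc4-/- cells, and Ifi202b, with 4.15 and 6.89 against 8.66, 7.34 and 6.96 (2.13, adjusted p = 0.666). Of the 40 measured genes nearest to Sdc4 on its chromosome, 1 (2.5%) was called, a share below the 4.28% of all genes. It was Pigt, a subunit of the enzyme that attaches GPI anchors, at 4.77 and 4.43 against 3.21, 4.25 and 2.87 (-1.16, limma adjusted p = 0.0422). The median of these neighbours was 0.04. Strain and genotype cannot be told apart in any of these genes.

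Satellite cell markers fell or did not pass the test in Sdc4-/- cells, and none rose. The list of satellite cell and quiescence genes held 30 measured members, of which 9 fell, 0 rose and 21 did not pass, where 2.96% of all genes fell. The median difference of the list was -0.43. Pax7, the factor that defines satellite cells, read 5.15 and 4.59 in wild type, against 2.41, 2.38 and 2.62 in Sdc4-/- cells (-2.40, standard error 0.15, limma adjusted p = 2.58e-06). Myf5, a myogenic determination factor already transcribed in quiescent cells, read 5.08 and 4.35 against 2.83, 2.83 and 2.80 (-1.90, standard error 0.19, adjusted p = 0.000131). Pax7 and Myf5 were thus at the level of background on all 3 Sdc4-/- arrays and above it on both wild type arrays. On the removed wild type array they read 2.47 and 3.31. The second Pax7 probe set was near background in both genotypes.

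The other called members were surface proteins and signalling genes. Chodl, a lectin enriched in quiescent satellite cells, read 5.05 and 5.84 against 2.87, 3.20 and 3.36 (-2.30, adjusted p = 4.53e-05). Cd34, a sialomucin of satellite cells and also of endothelium and interstitial cells, read 5.97 and 5.99 against 2.42, 3.62 and 2.42 (-3.16, adjusted p = 0.00189). No Sdc4-/- array reached a wild type value in any of these genes. The remaining called members, named here because they completed the count, were the receptor tyrosine kinase inhibitor Spry1, the growth arrest protein Gas1, the Notch receptor Notch3, the Notch target Hey1 and the engulfment receptor Megf10, with differences of -1.51 to -2.75. Vcam1, an adhesion molecule on satellite cells, read 7.33 and 7.08 against 5.73, 5.40 and 4.11 without passing (adjusted p = 0.129), and the chemokine receptor Cxcr4 read 3.85 and 4.55 against 7.56, 5.88 and 6.20 (2.35, adjusted p = 0.201). In all, 9 of the 30 differences were above 0. M-cadherin (Cdh15) lay between 3.16 and 3.23, desmin (Des) between 2.43 and 2.69 and the calcitonin receptor (Calcr) between 2.59 and 3.22 on all 5 arrays.

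The 9 calls were not equally firm. None was called from the 5 arrays alone, and with the removed array included 2 (Myf5 and Chodl) were called and the median was -0.21. Leaving out wild type replicate 1 left 5 calls. Among 17 genes of commitment and differentiation of muscle none was called or reached an unadjusted p under 0.05, and Myod1 read 2.29 and 2.65 in wild type, against 3.05, 2.52 and 2.30 in Sdc4-/- cells. The brightest of them were Cdkn1a, an inhibitor of the cell cycle, at 8.33 and 8.21 against 9.81, 8.83 and 9.20, and Mef2a, at 8.22 and 7.72 against 7.13, 7.42 and 7.07, with adjusted p-values of 0.849 and 0.646. Of 26 genes of the muscle fibre, a possible source of carried-over RNA, Myoz1 alone was called, where 4.28% of all genes were. It read 3.44 and 3.15 against 2.58 to 2.68 (-0.66, limma adjusted p = 0.0256).

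**Figure D3:**
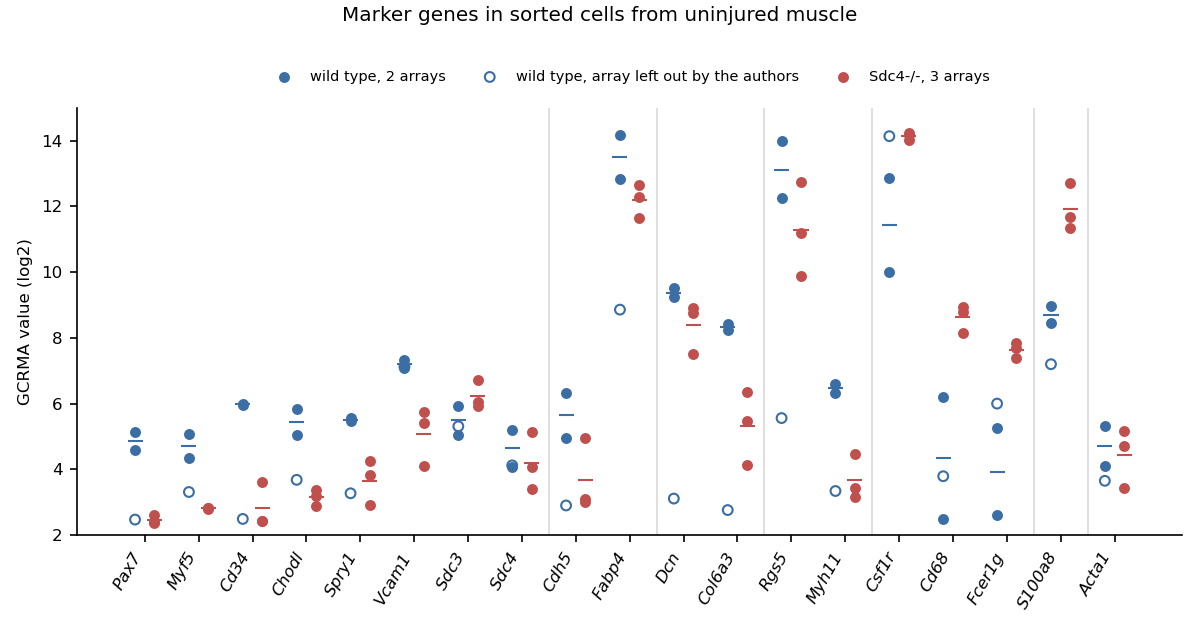
GCRMA values (log2, vertical axis) of marker genes on each array; grey lines separate satellite cell genes, endothelial, fibroblast, pericyte, macrophage, neutrophil and muscle fibre genes, filled blue circles are the 2 wild type arrays, open blue circles the array left out by the authors, red circles the 3 Sdc4-/- arrays and short lines the group means. Pax7, Myf5, Cd34 and Chodl lie above every Sdc4-/- array in both wild type replicates, and Csf1r, Cd68 and Fcer1g differ widely between the wild type replicates.

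Markers of other cell types were plain on arrays of both genotypes and differed between them by group, while in these sorted samples fewer cells of a type and less RNA per cell cannot be told apart. The macrophage genes were higher in Sdc4-/- cells. Of 23 measured monocyte and macrophage genes 4 rose, 0 fell and 19 did not pass, where 1.32% of all genes rose, and 21 of the 23 differences were above 0, with a median of 2.91. Fcer1g, the signalling chain of Fc receptors, read 2.61 and 5.25 in wild type, against 7.84, 7.70 and 7.38 in Sdc4-/- cells (3.71, standard error 0.60, limma adjusted p = 0.0038). Cd68, a lysosomal glycoprotein of macrophages, read 2.504 and 6.21 against 8.79, 8.93 and 8.15 (4.26, standard error 0.77, adjusted p = 0.00756). Aif1, an actin-binding protein of macrophages, read 2.63 and 4.52 against 5.79, 6.61 and 5.47 (2.38, adjusted p = 0.0342), and C1qc was the fourth gene. Csf1r, the receptor that defines the macrophage lineage, read 10.02 and 12.86 against 14.18, 14.24 and 14.03 and missed the threshold (adjusted p = 0.0725).

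The wild type replicates disagreed on these genes. The mean level of the macrophage list was 5.43 and 8.20 on wild type replicates 1 and 2, 8.62 on the removed wild type array and 8.99 to 9.58 on the Sdc4-/- arrays, so the distance between the wild type replicates was larger than that from replicate 2 to the Sdc4-/- arrays. Without wild type replicate 1 the median difference was 1.29 and 2 genes were called, and without replicate 2 it was 4.32 and 11 were called. With the removed array included the median was 1.94 and 2 genes, Cd68 and Fcer1g, were called.

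Among 12 neutrophil genes 1 rose, where 1.32% of all genes rose. It was Ltf, the granule protein lactoferrin, at 4.07 and 4.76 in wild type, against 6.45, 6.55 and 8.95 in Sdc4-/- cells (2.90, adjusted p = 0.0125). S100a8, a calcium-binding protein abundant in neutrophils, read 8.46 and 8.96 against 11.7, 11.4 and 12.7 without passing (adjusted p = 0.511), and the median of the list was 1.91, while Csf3r, Cxcr2 and Elane differed by -0.03, -0.01 and -0.05. No neutrophil gene was called without wild type replicate 1. Among 16 lymphocyte genes only Cd2, an adhesion molecule of T cells, was called, at 3.05 and 3.48 against 6.32, 5.57 and 5.78 (2.63, standard error 0.27, adjusted p = 0.000146), the removed wild type array read 5.63, and the median of the list was 0.01.

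**Figure D4:**
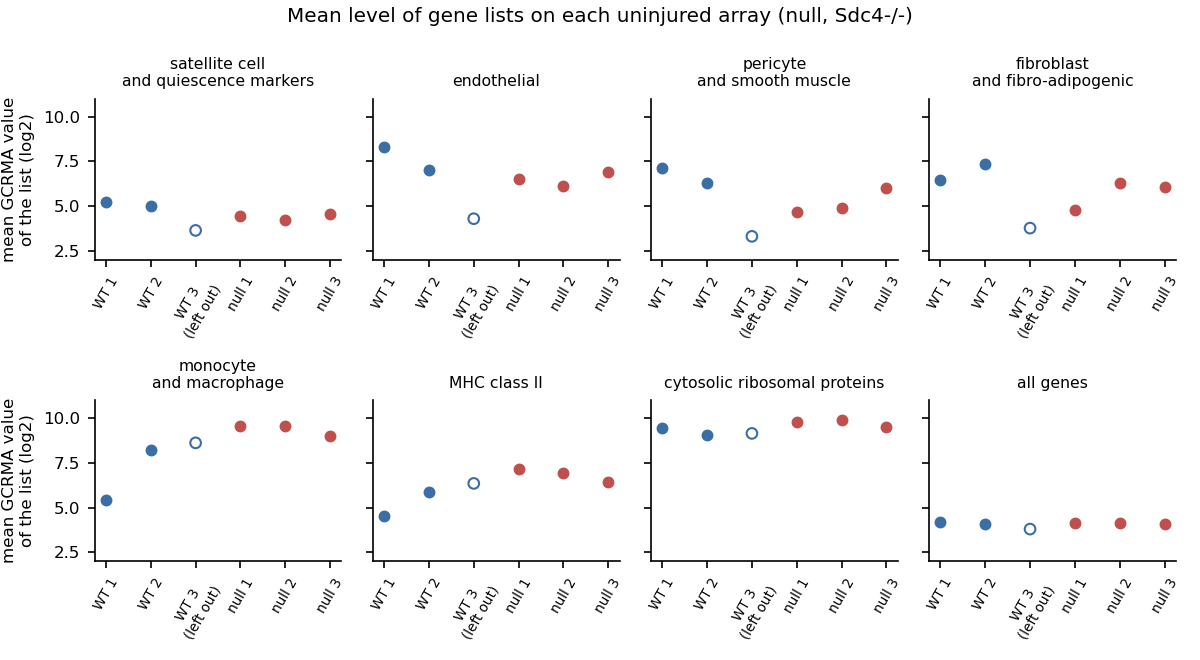
Mean GCRMA value (log2, vertical axis) of the genes of 8 lists on each uninjured array; WT, wild type; null, Sdc4-/-; the open circle is the wild type array left out by the authors. The macrophage list reads 5.43 on wild type replicate 1 and 8.20 on replicate 2, against 8.99 to 9.58 on the Sdc4-/- arrays, while all genes read 4.09 to 4.17 on the 5 arrays compared.

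Vascular and stromal genes went the other way with few calls, where 2.96% of all genes fell. Of 21 endothelial genes only Emcn, a sialomucin of venous and capillary endothelium, fell, at 6.06 and 4.75 against 4.50, 2.78 and 3.54 (-1.80, adjusted p = 0.0317). In 20 of the 21 the difference was below 0, and the median was -1.31. The exception, Lyve1, known both from lymphatic endothelium and from resident macrophages, read 3.86 and 9.53 against 10.4 to 10.8. Of 14 pericyte and smooth muscle genes 2 fell: Myh11, smooth muscle myosin, at 6.61 and 6.33 against 3.16, 3.44 and 4.47 (-2.78, adjusted p = 0.0159), and Abcc9, a subunit of a potassium channel, at 9.74 and 7.31 against 5.43, 5.89 and 6.81 (-2.48, adjusted p = 0.0441). The other probe sets of Myh11 (-0.22) and Abcc9 (-1.26 and -2.07) were not called. Of 18 fibroblast and fibro-adipogenic genes 2 fell: Col6a3, a collagen VI chain, at 8.24 and 8.43 against 4.14, 6.35 and 5.47 (-3.02, adjusted p = 0.0177), and Lum, the proteoglycan lumican, at 7.11 and 8.29 against 2.47, 5.32 and 5.29 (-3.34, adjusted p = 0.0232).

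For the pericyte list the median was -1.94 and for the fibroblast list -1.18, and the mean levels of the 3 lists did not overlap between the genotypes, by margins of under 1 unit: the endothelial mean was 8.31 and 7.004 in wild type, against 6.12 to 6.89 in Sdc4-/- cells, the pericyte mean 7.13 and 6.30 against 4.65 to 6.02, and the fibroblast mean 6.48 and 7.34 against 4.81 to 6.29. Many of these markers stayed high on the Sdc4-/- arrays, for example Fabp4, a fatty acid carrier of capillary endothelium, at 11.7 to 12.7, and Rgs5, a pericyte gene, at 9.87 to 12.8. On the removed wild type array the 3 means were 4.30, 3.31 and 3.77. With that array included, none of the calls in these 3 lists remained and their medians were -0.21, -0.34 and -0.15. Without wild type replicate 1 the endothelial and pericyte lists had medians of -0.51 and -1.12, and without replicate 2 they had medians of -2.21 and -2.40. The fibroblast list without replicate 2 had a median of -0.74. Of 10 Schwann cell genes, Sox10 (-0.78) and Cdh19 (-0.94) fell and Mbp, which encodes myelin basic protein, rose (1.48). Of 5 erythroid genes none was called, and over all genes 4.28% were. The other probe sets of Mbp (-0.34 to 0.36) and Sox10 (0.005 and 0.11) were not called.

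Of 11 measured MHC class II genes 4 rose, 0 fell and 7 did not pass, where 1.32% of all genes rose, and the median was 1.69. Among those that did not pass, H2-Ea differed by -0.85 and the class II transactivator Ciita by -0.07. H2-Ob, a chain of the H2-O peptide-loading regulator, read 3.60 and 4.52 in wild type, against 6.02, 5.44 and 5.77 in Sdc4-/- cells (1.69, standard error 0.31, limma adjusted p = 0.00828). Cd74, the invariant chain, read 4.99 and 7.70 against 10.7, 10.1 and 9.04 (3.60, standard error 0.66, adjusted p = 0.00845). H2-DMa, which helps load peptides, read 2.79 and 6.65 against 9.86, 9.62 and 8.09, and H2-Eb1, the beta chain of the E molecule, read 6.23 and 8.18 against 10.6, 10.3 and 9.53 and stayed higher at 12 h (3.30) and 48 h (2.11). In all 4 genes every Sdc4-/- array lay above both wild type arrays, but the removed wild type array read 9.86 for Cd74, inside the Sdc4-/- range. With the removed array included H2-Ob alone was called, and without wild type replicate 1 none was, with medians of 1.499 and 1.23.

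Because these genes are known for shared promoter elements, the 100 bases before the start of the class II genes were read from RefSeq (GRCm38.p6, a C57BL/6 sequence) and searched on both strands for CCAAT, the core of the Y box, whose reverse complement is ATTGG. Of the 12 listed genes 8 had a start in the table and 7 held a match, where 18.9% of all 32851 starts held one. Both sequences lie on the plus strand and show 2 of the 4 genes that rose, with matches in capitals.
H2-Eb1, chr17:34305767-34305866: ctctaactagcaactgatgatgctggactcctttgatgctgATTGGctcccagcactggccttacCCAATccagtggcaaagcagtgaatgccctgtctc
H2-Ob, chr17:34238805-34238904: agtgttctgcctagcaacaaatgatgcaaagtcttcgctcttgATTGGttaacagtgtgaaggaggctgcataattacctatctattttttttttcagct
The first match lies 59 bases before the start in H2-Eb1 and 57 bases before it in H2-Ob. H2-DMa, which rose as well, held no match in the windows of either of its 2 starts, and the match describes these letters only.

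MHC class I genes, each taken by its brightest probe set, held no call among 15, with a median of 0.23. For H2-D1 this choice leaves out the 3 probe sets, of lower mean over the arrays, that were lower by 4.30 to 5.95 in the account above. In uninjured wild type cells the probe sets that differed by -5.78 and -5.95 averaged 8.74 and 8.49, against 8.16 for the chosen one. The probe set that differed by -4.30 averaged 7.01 in these cells. B2m, the light chain shared by class I molecules, read 12.6 and 11.9 against 12.4 to 12.7. Of 27 interferon-stimulated genes only Irgm1, a GTPase of the defence against intracellular microbes, was called, where 4.28% of all genes were. It was lower, at 6.67 and 6.58 against 4.62, 4.39 and 4.64 (-2.08, standard error 0.37, limma adjusted p = 0.00656). Irgm1 was the only list member whose brightest probe set was called from the 5 arrays alone. The removed wild type array read 4.18 for Irgm1, below every Sdc4-/- array, and with that array included Irgm1 was not called (limma adjusted p = 0.424). At 48 h Irgm1 was higher in Sdc4-/- cells (1.70, limma adjusted p = 0.0116).

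**Figure D5:**
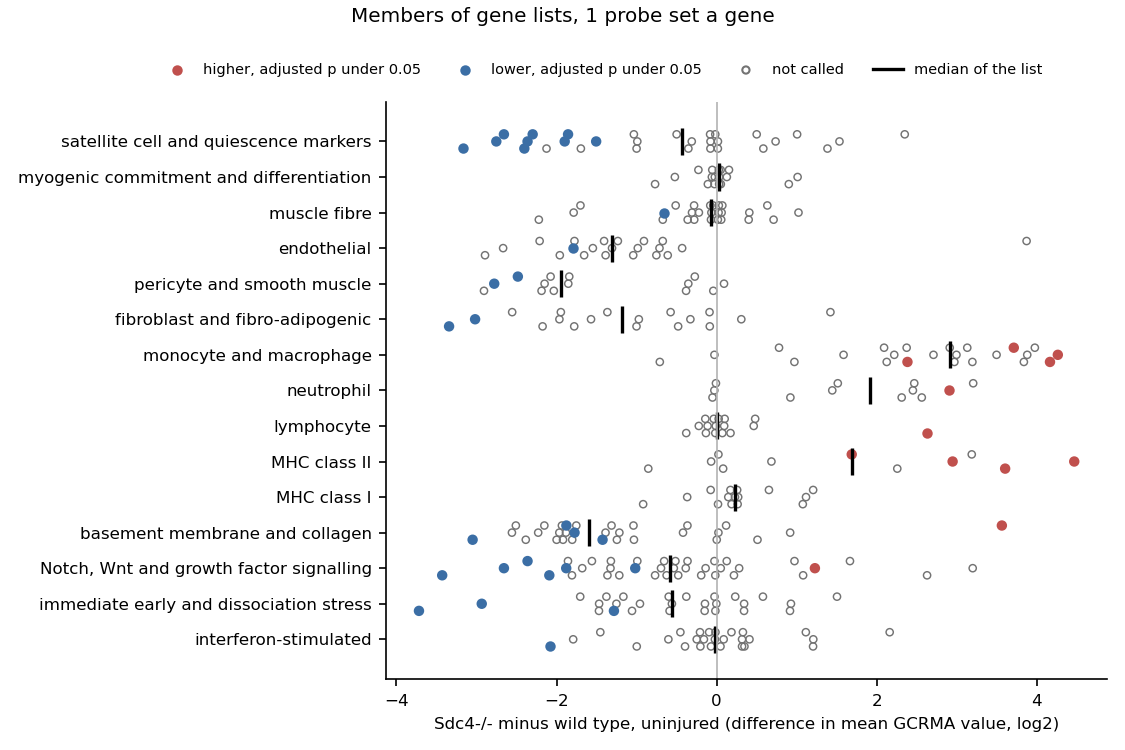
Difference between the means of uninjured Sdc4-/- and wild type cells (log2, horizontal axis) for each measured gene of 15 lists (rows); filled red, called higher; filled blue, called lower; open, not called; black bars, medians. The macrophage, neutrophil and MHC class II medians lie at 2.91, 1.91 and 1.69, and the pericyte, basement membrane and endothelial medians at -1.94, -1.59 and -1.31.

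Signalling ligands and the matrix of the satellite cell niche were mostly lower, less so with the removed array included. Of 38 genes of Notch, Wnt and growth factor signalling 6 fell and 1 rose, where 2.96% of all genes fell and 1.32% rose. The median was -0.58, and -0.14 with the removed array included. Among ligands, Bmp4, a bone morphogenetic protein, read 5.07 and 4.24 in wild type, against 2.49, 2.84 and 2.37 in Sdc4-/- cells (-2.09, standard error 0.20, limma adjusted p = 6.57e-05). Igf2, insulin-like growth factor 2, read 7.30 and 7.05 against 3.08, 4.03 and 4.13 (-3.43, standard error 0.49, adjusted p = 0.00156). Both ligands were clear of the Sdc4-/- arrays, and both read low on the removed wild type array, at 2.43 and 3.26. Tgfb1 was the gene that rose, at 3.33 and 3.27 against 4.24, 4.56 and 4.79 (1.23, adjusted p = 0.0111), and with the removed array at 3.39 it was also the only gene of this list called over 18 arrays. Id3, a transcriptional inhibitor induced by BMP signalling, read 7.20 and 6.37 against 4.93, 4.77 and 5.03 (-1.88, adjusted p = 0.00547). The Notch ligand Dll4, the receptor Notch3 and the target Hey1 were the other called falls, of which Notch3 and Hey1 also belong to the satellite cell list. This list had 2 calls without wild type replicate 1.

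Of 30 basement membrane and collagen genes 4 fell and 1 rose, where 2.96% of all genes fell and 1.32% rose. The median was -1.59, and -0.39 with the removed array included. Col4a5, a chain of basement membrane collagen, read 5.26 and 6.20 against 2.58, 2.83 and 2.62 (-3.05, standard error 0.20, limma adjusted p = 3.14e-06). Col15a1, a collagen at the outer face of basement membranes, read 5.18 and 5.39 against 3.18, 3.91 and 3.44 (-1.78, adjusted p = 0.00424). The laminin chains Lamc1, at 4.21 and 3.94 against 2.48 to 2.85 (-1.43, adjusted p = 0.00611), and Lamb2, at 7.46 and 6.40 against 4.75 to 5.65 (-1.88, adjusted p = 0.0239), completed the falls. Only Lamb2 was called with the removed array, which read 6.71. The gene that rose, Timp2, an inhibitor of metalloproteinases, read 6.77 and 9.33 against 11.3 to 11.9 (3.56, adjusted p = 0.0293), with 11.6 on the removed array. This list had 2 calls without wild type replicate 1.

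Among the relatives of syndecan-4, 1 of 10 syndecans and glypicans was called, where 4.28% of all genes were. It was Gpc4, a glypican anchored by lipid, at 5.95 and 4.49 against 3.55, 3.86 and 4.20 (-1.35, limma adjusted p = 0.0357). Sdc1 read 6.89 and 5.81 against 2.64, 4.07 and 4.20 (-2.72, adjusted p = 0.15) and Sdc2 read 6.87 and 6.56 against 2.80, 4.35 and 6.08 (-2.31, adjusted p = 0.0911), and neither passed. Of 28 partners of syndecan-4 and focal adhesion genes 3 rose and 0 fell, where 1.32% of all genes rose, and the median was 0.40. Rac1, the GTPase on which syndecan-4 acts, read 8.30 and 8.58 in wild type, against 9.34, 9.80 and 9.50 in Sdc4-/- cells (1.10, standard error 0.26, limma adjusted p = 0.0351). Tiam1, an exchange factor that activates Rac1, read 3.17 and 4.32 against 6.47, 5.90 and 6.08 (2.41, adjusted p = 0.0284), and Zyx, the focal adhesion protein zyxin, read 3.05 and 3.03 against 4.44, 4.71 and 3.94 (1.32, adjusted p = 0.0179). Other probe sets of these 3 genes were not called, and without wild type replicate 1 none of the 3 was.

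Of 27 immediate early genes, which respond within minutes to stimulation and to tissue dissociation, 3 fell and 0 rose, where 2.96% of all genes fell. The median was -0.56. Zfp36, a protein that destabilizes mRNAs, read 9.32 and 9.03 in wild type, against 8.08, 8.09 and 7.51 in Sdc4-/- cells (-1.28, standard error 0.21, limma adjusted p = 0.00456). Egr3, a zinc finger transcription factor, read 7.77 and 7.83 against 5.49, 5.10 and 4.01 (-2.93, standard error 0.57, adjusted p = 0.012), and Ccn1 was the other. Without wild type replicate 1 and over all 18 arrays none of the 3 was called. Of 21 mRNA-binding regulators Zfp36 and Hnrnpr, at 10.5 and 9.62 against 7.53 to 7.89 (-2.27, adjusted p = 0.0379), fell. Neither was called over 18 arrays, where Hnrnpr differed by -0.46, or without wild type replicate 1, and the median of the list went from -0.38 to 0.18 over 18 arrays. The other bright probe set of Hnrnpr was not called (-1.12, adjusted p = 0.866).

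Housekeeping programmes held few calls, where 4.28% of all genes were called. None of 30 cell cycle genes, 13 glycolysis genes, 15 hypoxia and oxidative stress genes or 81 genes of the respiratory chain and ATP synthase was called in limma, although 6, 2, 1 and 10 of them had an unadjusted p under 0.05. Their medians were 0.03, 0.53, 0.44 and 0.20. Pcna, the replication clamp, read 8.44 and 8.38 in wild type, against 8.52, 8.50 and 8.18 in Sdc4-/- cells, and Mcm6, a subunit of the replicative helicase, 7.78 and 7.50 against 7.20 to 7.57. Slc2a1, the glucose transporter, read 9.01 and 8.17 against 10.7, 9.63 and 9.51 (adjusted p = 0.921). Among 47 cytosolic ribosomal proteins 39 differences were above 0, the median was 0.55 and the only call was Rps9, at 11.2 and 10.2 against 6.65, 7.74 and 7.47 (-3.40, adjusted p = 0.00934), whose other probe sets differed by 0.34 and 0.50 and were not called. Of 39 proteasome genes Psmc5, an ATPase subunit, fell at low values, 4.04 and 3.64 against 2.68 to 2.96 (-1.04, adjusted p = 0.0239).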

How the data were processed

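RNA of sorted satellite cells was hybridized to Affymetrix mouse arrays. The authors read intensities with GCOS, normalized them by GCRMA and deposited log2 values, used here unchanged; versions of these programs are not given in the sources used here. The values carry no detection calls, so readings of about 2 to 3 cannot be ranked. The uninjured groups were compared with limma 3.58.1 in R 4.3.3, two-sided, with groups of genotype and time in a single model over 17 arrays (11 residual and 1.2 prior degrees of freedom, 3 and 0.92 with 5 arrays) and Benjamini-Hochberg adjustment over 45101 probe sets. In the array annotation 34958 probe sets carry 1 symbol, 932 several and 9211 none, and no symbol needed updating. Replicate numbers were not shown to pair samples (r of -0.007 and 0.124).

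Named genes are the 15 largest rises and falls without overlap, up to 4 called members of each list by adjusted p (the 2 brightest where none was called), those called at all 3 times, Sdc4 and Sdc3, and called members among strain genes and neighbours of Sdc4. Their values are from the probe set of highest mean unless another is named, and other probe sets of the same gene often were not called. The genes, lists and rule were chosen with earlier results of these data known. On simulated data with 200 changes, 34 of 100 log2 changes of 1 and 80 of 100 of 3 were recovered, with 6 false calls. The simulated noise of a probe set had the spread of the 6-group fit in every group. The simulation could therefore not test how a spread that differs between groups affects false calls. Alternatives were all 18 arrays, only the 5 arrays, the wild type 12 h group left out, eBayes with trend and robust, array weights, quantile normalization, a shift to the same 75th percentile, a mean of at least 4, no moderation, a replicate block, hybridization controls as a covariate, and each array left out, where the remaining wild type array takes its spread from the other groups. For lists, averaging the probe sets of each gene was tried too.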

Additional observations from a re-analysis of the deposited data

Results flagged for a closer look

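For 76 differences among the 95 named genes, the difference between genotypes after injury was not the difference in uninjured cells, by a limma test of the interaction at an adjusted p under 0.05, 40 at 12 h and 36 at 48 h. Among all probe sets 11.1% passed this test at 12 h and 4.08% at 48 h. The values below are the genotype difference after injury minus that in uninjured cells, on the log2 scale. Most named genes were chosen for their uninjured difference, which these values subtract, so their sign and number follow largely from that choice and are given as a description. Both times share the uninjured arrays, so the 2 values of a gene are not independent. The cause was not tested, and among the wild type 12 h arrays replicate 2 read 3.98 for the 3′ Actb control.

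For genes chosen as higher in uninjured Sdc4-/- cells, the values at 12 h were -4.53 for Hal, -5.15 for Cd209e, -3.92 for Mgl2, -3.61 for Isoc1, -4.13 for Il6ra, -2.74 for Cd2 and -1.08 for Tgfb1. At 48 h they were -5.14 for Cd209e, -4.88 for Mgl2, -4.09 for Il6ra, -4.34 for Ear3, -2.52 for Cd2 and -1.77 for H2-Ob. Cd209e, for example, differed by 5.07 in uninjured cells, by -0.08 at 12 h and by -0.07 at 48 h.

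For the genes chosen as the largest falls in uninjured cells the values were, at 12 h and 48 h, 4.72 and 5.06 for Stox2, 3.73 and 3.74 for Matn2, 4.09 and 4.27 for Klhl4, 3.65 and 4.14 for Prex2, and 3.24 and 4.33 for Aspn. They were 3.03 and 3.60 for Clec14a, 3.26 and 3.58 for Pdgfd, 4.09 and 5.65 for Lgalsl, 3.45 and 3.76 for Reck, and 3.29 and 3.69 for Ccdc85a. They were 2.94 and 2.93 for Fam13c, 3.07 and 3.40 for Fat4, 4.80 and 5.62 for Ccn1, and 5.96 and 3.90 for Rnd1.

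Among satellite cell markers the values at 12 h and 48 h were 2.33 and 2.35 for Pax7, 2.25 and 1.97 for Chodl, 1.25 and 1.31 for Myf5, and 3.12 and 3.94 for Cd34. For the fibroblast gene Col6a3 they were 4.06 and 4.34, and for Lum 4.22 at 12 h. Myoz1 had 1.15, Mef2a 2.62 and Sox10 0.74 at 12 h.

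Signalling and matrix genes gave 2.10 and 1.91 for Bmp4, 2.77 and 3.92 for Igf2, 2.81 and 2.34 for Id3, 2.77 and 2.85 for Col4a5, and 1.59 and 2.02 for Col15a1 at 12 h and 48 h, and 1.38 for Lamc1 at 48 h. The early response genes gave 8.25 and 5.04 for Egr3 and 4.18 and 3.06 for Zfp36, and these 2 genes were called higher in Sdc4-/- cells after injury, Egr3 by 5.32 at 12 h and 2.11 at 48 h and Zfp36 by 2.90 and 1.78. Irgm1 had 2.81 and 3.78. At 12 h Hnrnpr had 6.98 and Rps9 3.70, and at 48 h Psmc5 had 1.55 and Pigt 2.07.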

How the results depend on the processing

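Against 1714 called probe sets (778 genes), the count was 426 over 18 arrays, 57 over the 5 arrays, 314 at a mean of at least 4, and 1208 to 2200 with each array left out. Those higher (566) numbered 350, 19 and 193 in the same 3 settings, 296 after quantile normalization, 362 with the hybridization covariate and 208 to 906 with each array left out. Those lower (1148) numbered 76, 38 and 121, and 920 to 1669 with each array left out. Probe sets called with the same sign at all 3 times (15) numbered 9 over 18 arrays, 0 over 5, 23 with array weights, 4 after quantile normalization, 33 after the percentile shift, 28 without moderation, 1 with the hybridization covariate and 7 to 28 with each array left out. Those called alike in uninjured cells and at 48 h (83) numbered 3 over 5 arrays, 30 after quantile normalization, 288 after the percentile shift, 49 at a mean of at least 4, 6 with the hybridization covariate and 38 to 120 with each array left out. With replicate number as a block 1438 were called (475 higher, 963 lower), 14 at all times and 63 in uninjured cells and at 48 h, and no count moved by over 1.5 times. Of the 95 named genes 75 lost their call over the 5 arrays and 54 over 18 arrays. Some of the 95, such as Sdc4, Sdc3 and Pcna, had no call to lose, and over the 5 arrays only Isoc1 and Irgm1 kept theirs. No called difference turned its direction in any setting. The median moved by more than its SD over the fits with an array left out in 18 of 28 lists over 18 arrays, and in 18 each without wild type replicate 1 or replicate 2. The causes were not tested, and values near background limit the order of dim genes.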
